A study of Mus musculus with 4 samples.

Results

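In CT26 tumours, 165 of 5517 filtered nuclei were T-cell-like, 66 of 3345 in the Sun1_WT library and 99 of 2172 in the Sun1_KO library. A nucleus was a member when the unique molecular identifiers (UMIs, counted RNA molecules) of Cd3e, Cd3d, Cd3g, Cd8a and Themis summed to at least 2, no Ncr1 UMI was read, and Hmga2, a gene of the tumour cells, stayed under 5 UMIs per 10000. Nuclei under 500 UMIs or 300 genes, or with over 20% of UMIs from mitochondrial genes, had been removed. CT26, a colon carcinoma line that comes from BALB/c mice, was used with Sun1 intact (Sun1_WT) or with Sun1 knocked out (Sun1_KO). The cells were grown for 14 days under the skin of BALB/c mice, and the digested tumours were read with a kit that takes RNA and accessible DNA of one nucleus together. The genotype names the injected cells, since the labels give the hosts only as BALB/c mice. The number of tumours behind a library, and whether the knockout line is 1 clone, are not stated in the labels. With 1 expression and 1 accessibility library per genotype there was no replicate and no test. All intervals below are exact 95% intervals that cover counting error only, and a gene is called higher or lower when it passed 2-fold.

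T cells read antigen through a receptor of alpha and beta, or gamma and delta, chains, which signals through the CD3 proteins and the CD247 chain to the kinase Lck. CD8 and CD4 are co-receptors that separate killer from helper T cells, and Themis is a signalling protein that T cells need while they mature in the thymus. In tumours, CD8 T cells kill with granzymes and perforin, and after long exposure to antigen they carry inhibitory receptors such as PD-1 (Pdcd1) and the transcription factor Tox.

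Sun1, which encodes an inner nuclear membrane protein of the complex that ties the nuclear lamina to the cytoskeleton, was read at 41.8 counts per 1000000 UMIs (CPM, without mitochondrial genes) in T-cell-like nuclei of the Sun1_WT library, from 10 UMIs. It was at 61.2 CPM in those of the Sun1_KO library, from 24 UMIs. In nuclei with at least 5 Hmga2 UMIs per 10000, called tumour-like here, the Sun1 level was 104.6 CPM for Sun1_WT and 65.8 CPM for Sun1_KO. The targeted gene was therefore lower in the tumour-like nuclei of the Sun1_KO library and not in its T-cell-like nuclei, where the intervals overlapped.

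The 66 Sun1_WT members held 250530 UMIs with a median of 2829 per nucleus, and the 99 Sun1_KO members held 433931 with a median of 3553. Mitochondrial UMIs took 4.45% of those of the Sun1_WT members and 9.56% of those of the Sun1_KO members, and a like gap was present in the other classes. The same members carried 1673128 and 2963417 accessibility counts. A doublet caller marked 0 and 2 nuclei, too few for a working call, so no nucleus was removed for it, and 0 and 3 members lay among the 5% of nuclei with the highest scores. Of 12 barcodes that occurred in both libraries, 0 were Sun1_WT members and 1 was a Sun1_KO member. Comparison classes were 91 and 75 NK-like nuclei (Ncr1 read), 239 and 219 macrophage-like nuclei (at least 5 UMIs of C1qa, C1qb, C1qc, Mrc1 and Csf1r) and 2433 and 1516 tumour-like nuclei.

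The gate genes chose the members, and their values are given as a description. Themis gave most of the signal, with 372 UMIs in 61 of 66 Sun1_WT nuclei and 451 UMIs in 82 of 99 Sun1_KO nuclei. Cd3e was read in 44 and 65 members, Cd3d in 40 and 52, Cd3g in 41 and 51, and Cd8a in 41 and 36. The median gate sum was 9 in Sun1_WT and 6 in Sun1_KO, with highest sums of 42 and 36. Themis was the only gate gene read in 2 Sun1_WT and 9 Sun1_KO members. Just inside the threshold, 5 Sun1_WT and 19 Sun1_KO members had a gate sum of exactly 2. Just outside, 25 and 29 nuclei had a sum of 1. The Hmga2 limit left out 30 and 26 nuclei that met the gate, and Ncr1 left out 6 and 8. Members close to the threshold thus took a larger place in the Sun1_KO library.

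The label held against T-cell genes that the gate did not use. At least 1 UMI of Trac, Trbc2, Bcl11b, Cd247, Lck, Cd28, Cd5 or Cd6 was present in 65 of 66 Sun1_WT and 97 of 99 Sun1_KO members. All 5 and all 19 members with a gate sum of 2 carried one, against 8 of 25 and 12 of 29 nuclei just outside the gate. The set is not limited to T cells, since 82 of 91 and 62 of 75 NK-like nuclei carried one of its genes too. Trac and Trbc2 encode constant parts of the alpha and beta receptor chains. Trac was read in 57.6% of the Sun1_WT and 44.4% of the Sun1_KO members, and in 0 of 91 and 1 of 75 NK-like nuclei. Trbc2 was read in 78.8% and 70.7% of members. Bcl11b, a transcription factor that fixes T-cell identity, was read in 68.2% and 67.7% of members, in 1.10% and 2.67% of NK-like nuclei and in 0 of 239 and 1 of 219 macrophage-like nuclei. Lck and Cd247 were shared with NK-like nuclei, while Trac, Bcl11b, Cd5 and Cd6 set the members apart. Xist, the RNA of the inactive X chromosome, was read in 60 of 66 and 86 of 99 members.

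**Figure D1:**
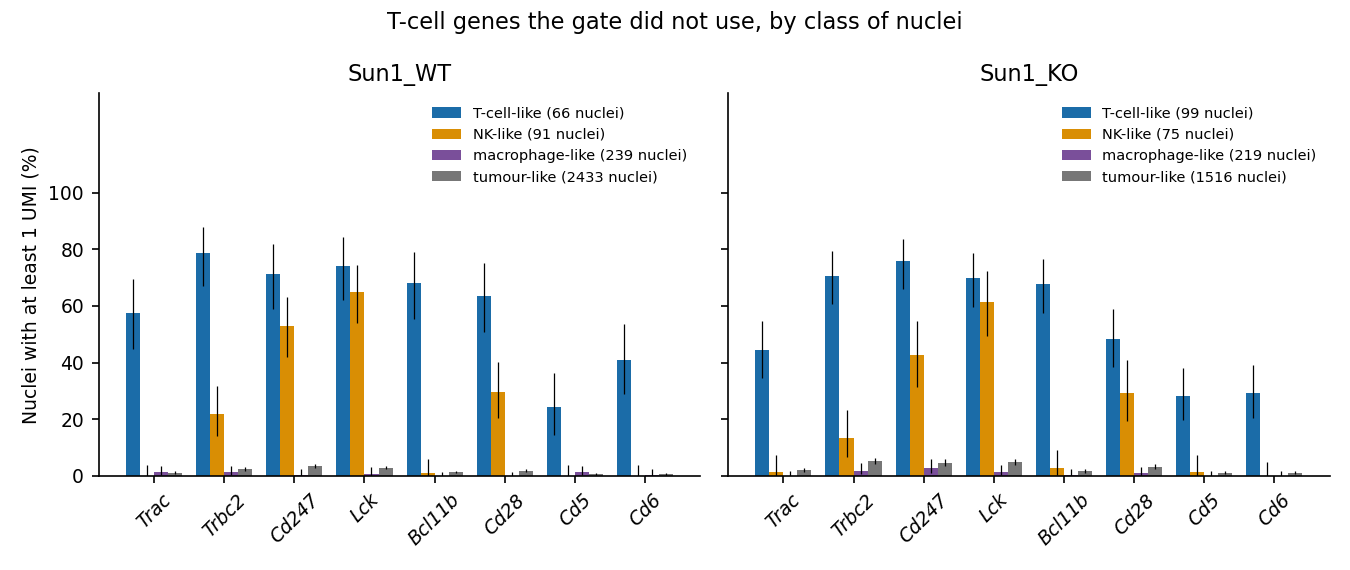
Share of nuclei with at least 1 UMI (vertical axis, percent, with exact binomial 95% intervals as lines) for 8 T-cell genes outside the gate, in 4 classes of nuclei in the Sun1_WT (left) and Sun1_KO (right) libraries. Trac, Bcl11b, Cd5 and Cd6 are read in few nuclei outside the T-cell-like class, and Lck and Cd247 are also read in NK-like nuclei.

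Markers of macrophages, B cells, dendritic cells and tumour cells were low in the members, and a few nuclei held much of them, whereas NK markers were widespread. The 16 macrophage markers summed to 697.7 CPM in Sun1_WT and 1427 CPM in Sun1_KO members, against 21090 and 14540 CPM in macrophage-like nuclei. At least 5 macrophage UMIs were present in 3 and 6 members, and 1 Sun1_KO member held 241 of the 560. The 18 NK markers summed to 2507 and 2385 CPM, against 11910 and 7563 CPM in NK-like nuclei, with Ncr1 (at 0 by the rule), Klra4, Klra8 and Klra9 at 0. At least 5 UMIs of the NK list, which holds genes that killer T cells also use, such as Prf1, were present in 41 of 66 and 49 of 99 members. The part of NK-type RNA in the results on cytotoxic genes was not tested. B-cell markers reached 137.9 and 25.5 CPM, with 31 of the 33 Sun1_WT UMIs in 1 nucleus and Cd79a, Cd79b, Ms4a1 and Pax5 at 0 in both libraries. Dendritic cell markers reached 16.7 and 104.5 CPM, with Clec9a and Cd209a at 0 in both. The 12 tumour cell markers stood at 196.3 and 206.4 CPM in the members against 4082 and 5577 CPM in tumour-like nuclei.

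The share of T-cell-like nuclei was 1.97% (1.53 to 2.50) in the Sun1_WT library and 4.56% (3.72 to 5.52) in the Sun1_KO library. The ratio of the shares was 2.31 (1.68 to 3.20). The ratio stayed at 2.02 or more under the planned settings of gate, depth, Hmga2, macrophage markers and doublet score. With a gate sum of at least 5, a setting chosen after the data were seen, 52 and 58 nuclei remained and the ratio was 1.72. A share among nuclei moves with the number of tumour nuclei recovered as well as with the number of T cells, and these cannot be told apart here.

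Members with Cd8a or Cd8b1 RNA, the 2 chains of the CD8 co-receptor, were the main group in both libraries. Of 66 Sun1_WT members, 49 carried Cd8 RNA alone, 4 carried Cd4 alone, none carried both and 13 carried neither. Of 99 Sun1_KO members, 45 carried Cd8 alone, 7 Cd4 alone, 4 both and 43 neither. Nuclei with Cd8 RNA were 74.2% (62.0 to 84.2) of the members in Sun1_WT and 49.5% (39.3 to 59.7) in Sun1_KO. After thinning every nucleus to 1000 UMIs, the shares were 43.8% of 64 and 21.5% of 93 nuclei. Cd8a is a gate gene, so the share depends in part on the rule. Cd8b1, which is not, was read in 37.9% and 35.4% of members before thinning and in 21.9% and 6.45% after it. Members with neither co-receptor were shallower, with median depths of 1697 and 2190 UMIs against 2996 and 4313 in those with Cd8 alone, and 9 of the 13 and 31 of the 43 had gate sums of 2 to 4. The part of depth in the difference was not tested beyond the thinning.

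**Figure D2:**
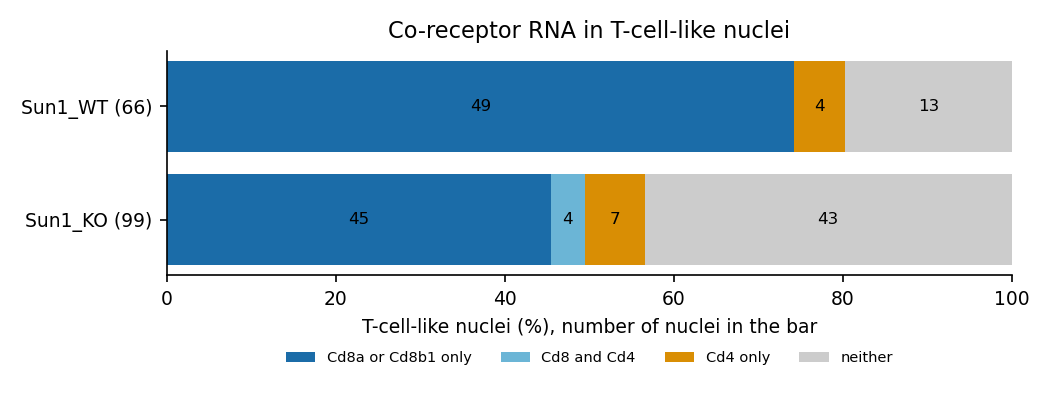
Share of T-cell-like nuclei (horizontal axis, percent) with RNA of Cd8a or Cd8b1 only, of Cd8 and Cd4, of Cd4 only and of neither, in the Sun1_WT library (66 nuclei) and the Sun1_KO library (99 nuclei), with the number of nuclei printed in each segment. The segment with neither co-receptor holds 13 Sun1_WT and 43 Sun1_KO nuclei.

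Cd4, the helper co-receptor, was rare. It was read in 4 of 66 Sun1_WT members (6.06%, 1.68 to 14.8) and 11 of 99 Sun1_KO members (11.1%, 5.68 to 19.0). Thinned to 1000 UMIs the shares were 4.69% and 6.45%, and the intervals overlapped at both depths. Cd4 was also read in 1.67% and 0.913% of macrophage-like nuclei, whose median depths were 6217 and 6001 UMIs, and in 1 of 91 and 0 of 75 NK-like nuclei, which sets the background. Foxp3, the factor that defines regulatory T cells, was read in 4 of 66 Sun1_WT members and in 0 of 99 Sun1_KO members, where a floor of 3 nuclei allows a share with a UMI of up to 3.03%. After thinning Foxp3 was at 0 in both libraries, so at that depth it was not detectable in either.

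Accessibility, which the gate did not use, followed the Cd8 RNA. The loci of Cd8a and Cd8b1 carried a count in 23 of 49 Sun1_WT and 37 of 49 Sun1_KO members with Cd8 RNA. In Sun1_WT this rests on 1 peak at Cd8a, as no peak was called at Cd8b1, and in Sun1_KO on 2 peaks at Cd8a and 1 at Cd8b1, so the libraries are not compared. The loci carried a count in 0 of 4 and 0 of 7 members with Cd4 and no Cd8 RNA. The intervals of these zeros reach 60.2% and 41.0%, and the 46.9% of Sun1_WT members with Cd8 RNA lies within the first. Among members with neither RNA the loci carried a count in 3 of 13 and 13 of 43. In NK-like nuclei the figure was 1 of 91 and 1 of 75. The nuclei without co-receptor RNA therefore stood between those with Cd8 RNA and the NK-like class at this locus. They also had fewer accessibility counts, with medians of 16730 and 23631 against 24946 and 30628 in those with Cd8 RNA. The part of that depth was not tested. Bcl11b was accessible in 9 of the 13 and 32 of the 43, close to the 39 of 49 and 37 of 49 in those with Cd8 RNA. The share of nuclei with a count at the Cd4 locus did not separate the members from NK-like or macrophage-like nuclei. It was 30.3% and 36.4% of members, 26.4% and 24.0% of NK-like and 37.2% and 34.3% of macrophage-like nuclei. Scaled by the accessibility counts of each class, as CPM, the locus was at 29.3 and 33.1 in members. It was at 15.7 and 18.1 in NK-like, 35.0 and 29.2 in macrophage-like and 7.98 and 5.85 in tumour-like nuclei. Members thus stood above tumour-like nuclei at this locus, and within 2-fold of the NK-like and macrophage-like classes.

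A small set of Sun1_KO members carried genes of gamma-delta and innate-like T cells. Out of 11 such genes, at least 3 were read in 5 of 99 Sun1_KO members (5.05%, 1.66 to 11.4) and in 0 of 66 Sun1_WT members, where the same floor of 3 nuclei allows up to 4.55%. No NK-like nucleus had more than 2 of them. The 5 nuclei were found after the data were seen, and the 2 intervals overlap. The 11 genes, Trdc among them, chose these nuclei, so their UMIs there are a description. Trdc was also read in 21 of 91 and 16 of 75 NK-like nuclei. All 5 held Trdc, the delta chain constant part (16 of the 18 Trdc UMIs in Sun1_KO members), Cd163l1, a scavenger receptor known from gamma-delta T cells, with 30 of its 31 UMIs, and Il23r, the receptor of interleukin 23, with all 14 of its UMIs. Zbtb16, a factor of innate-like lymphocytes, was read in 3 of them. None of the 5 had Trac, Cd8 or Cd4 RNA, and 4 had a beta chain constant gene. Their depths ran from 662 to 2972 UMIs and their gate sums from 2 to 4, with UMIs of CD3 genes and none of Themis. They also held Il7r, the interleukin 7 receptor, in 4 nuclei (26 UMIs) and no Gzmb. These 5 members thus passed the gate on CD3 genes, without Themis or Cd8a.

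Set against NK-like nuclei of the same library, the members were higher in genes of the receptor chain, receptor signalling and checkpoint lists and lower in NK markers. With Ncr1 and the gate genes left out, since they define the classes, 5495 genes had at least 20 UMIs over both classes in each library. The median log2 ratio of T-cell-like over NK-like CPM was 0.06 in Sun1_WT and 0.01 in Sun1_KO. In both libraries, 166 genes (3.02%) were at least 2-fold higher in T-cell-like nuclei and 138 (2.51%) at least 2-fold lower.

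Of 15 measured genes of the exhaustion and checkpoint list, 8 were among the higher genes (Ctla4, Pdcd1, Rgs16, Nr4a2, Tox, Lag3, Cxcr6 and Havcr2) and 1, Cd244a, among the lower. Pdcd1 was at 296.6 CPM in T-cell-like and 0 CPM in NK-like nuclei of Sun1_WT, at least 43.1-fold higher against a floor of 3 UMIs. In Sun1_KO it was at 287.9 against 22.9 CPM. Havcr2, the receptor TIM-3, was at 376.0 against 13.8 CPM in Sun1_WT and 229.3 against 9.15 CPM in Sun1_KO. Tox was at 1675 against 211.2 CPM and 1850 against 535.0 CPM. Some of these genes were also read in NK-like nuclei, with Tox in 38.5% and 53.3% of them, Lag3 in 19.8% and 9.33% and Ctla4 in 15.4% and 8%. They were thus higher in T-cell-like nuclei rather than limited to them.

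Among the 6 measured receptor chain genes, Cd247, Trbc2, Cd8b1 and Trac were higher and Trdc lower. Of 26 receptor signalling genes, 7 were higher (Icos, Plcg1, Lat, Cblb, Ubash3a, Cd5 and Cd6) and Txk was lower. Cd6, a co-receptor of T-cell adhesion, reached 188.0 CPM in the Sun1_WT members, 145.2 CPM in those of Sun1_KO and 0 in both NK-like sets, at least 27.3-fold and 10.6-fold higher. Cd8b1 was at least 37.0-fold and 10.6-fold higher. Dpp4 (CD26), a surface peptidase of T cells, was at 146.2 against 11.5 CPM and 158.0 against 4.57 CPM. The 10 genes with the firmest ratios also held Atp2b2, Dlg2, Fam169b and Gpm6b, of which Fam169b stood at 325.9 against 6.89 CPM and 326.2 against 9.15 CPM. The receptor chain and signalling lists together held 11 of the 166 higher genes.

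Among the lower genes were many NK markers. Of 14 measured NK markers, 11 were lower in T-cell-like nuclei. Klrb1c, the NK1.1 antigen, had 1 UMI in each T-cell-like set against 72 and 30 in the NK-like sets. Klra3 and Klra7, members of the Ly49 receptor family, had 1 and 4 UMIs in Sun1_WT members against 113 and 141 in NK-like nuclei. Gzma, a tryptase granzyme, was at 41.8 against 4685 CPM in Sun1_WT and 10.2 against 1481 CPM in Sun1_KO. The cytotoxic list was split, with Ifng higher and Gzma, Gzmb and Ctsw lower of 21 measured. Cytotoxic RNA other than Gzma was present in both classes, with Gzmb at 676.8 and 298.1 CPM in the members and 2429 and 781.9 CPM in NK-like nuclei.

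Between the genotypes, most genes of T-cell-like nuclei were alike within 2-fold. Of 3043 genes with at least 50 UMIs over both libraries, 2874 were within 2-fold, 100 (3.29%) were higher in Sun1_KO and 69 (2.27%) were lower, and the median log2 ratio of Sun1_KO over Sun1_WT was 0.03. The genes with the largest ratios came from single nuclei. In 17 of the 100 higher and 18 of the 69 lower genes, 1 nucleus held over 50% of the UMIs of the higher library. Without the nucleus that held most of each gene, 85 of the higher and 49 of the lower genes were still past 2-fold. Of those, 70 and 36 were read in at least 20 nuclei of the higher library. The totals were not changed in that setting, which moved ratios upward: the median log2 ratio was 0.098, and 127 genes were higher and 63 lower. How much of the 85 rests on that shift was not tested.

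**Figure D3:**
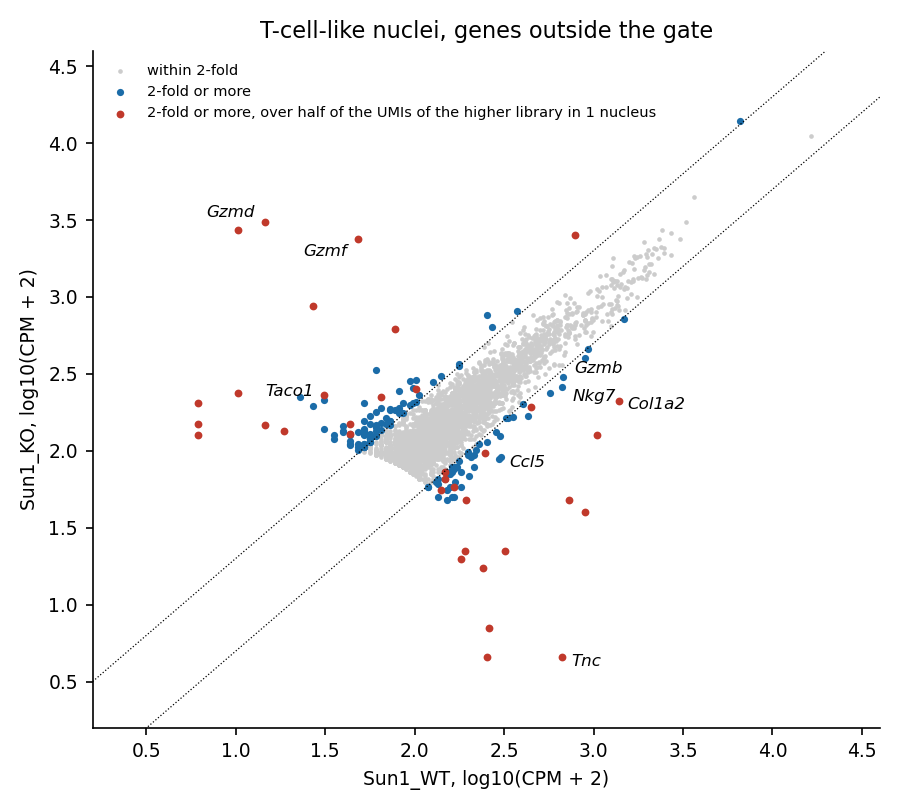
Summed expression of 3043 genes outside the gate in T-cell-like nuclei, as log10 of CPM plus 2 in the Sun1_WT library (horizontal axis) and the Sun1_KO library (vertical axis), with dotted lines at 2-fold. Red points are genes past 2-fold for which 1 nucleus holds more than 50% of the UMIs of the higher library, and the granzymes Gzmd and Gzmf, Col1a2 and Tnc are among them, while Gzmb, Nkg7 and Ccl5 (blue) are not.

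The granzymes of the Gzmc to Gzmg cluster, which lie beside Gzmb and are known from strongly stimulated killer cells, were among the genes with the highest ratios. Gzmd had 3 UMIs in Sun1_WT and 1213 in Sun1_KO members, Gzmg 2 and 1069, Gzmf 11 and 929, Gzme 6 and 343, and Gzmc 18 and 241. Of the Sun1_KO UMIs, 1208 of Gzmd, 1068 of Gzmg, 924 of Gzmf, 343 of Gzme and 224 of Gzmc sat in 1 nucleus, which also held 186 of the 358 Prf1 UMIs (perforin). That nucleus was the deepest Sun1_KO member, with 25005 UMIs and a gate sum of 19, all from Cd3d and Cd3g. It held Trbc1 (4 UMIs) and Cd28 (5), and no Trac, Bcl11b, Lck, Tox or Pdcd1. It also held Tyrobp (6 UMIs) and Fcer1g (5), adaptors of NK cells and myeloid cells. Without the nucleus holding most of each gene the log2 ratio of Gzme was -3.88, of Gzmf -0.95, of Gzmg -0.71 and of Gzmc 0.33. Gzmd kept 5 UMIs in the other Sun1_KO members. The sum of the 23 listed cytotoxic genes, 6246 CPM in Sun1_WT and 11540 CPM in Sun1_KO, was likewise made up mostly of UMIs of this nucleus in Sun1_KO.

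At the lower end, the matrix genes had most of their UMIs in 1 Sun1_WT nucleus. The collagen genes Col1a1, Col1a2 and Col3a1 had 215, 330 and 250 UMIs in Sun1_WT against 15, 82 and 49 in Sun1_KO members, and 212, 304 and 242 of the Sun1_WT UMIs sat in 1 nucleus. The same nucleus held 166 of the 175 UMIs of Sparc, a matrix glycoprotein, and 159 of the 160 of Tnc, tenascin C. It was the deepest Sun1_WT member, with 16974 UMIs, a gate sum of 2 from Cd3d, 34 UMIs of the fibroblast gene Dcn and 1 to 3 UMIs each of Trac, Trbc2, Bcl11b, Lck and Cd28. Its T-cell loci held 1732 accessibility CPM (counts per 1000000 peak counts) against 3647 over all Sun1_WT members. Cadm2, Rarres2 and Slfn4 had 59 of 60, 59 of 62 and 42 of 43 Sun1_WT UMIs in 1 nucleus each, and Ccl2 and Cxcl10, chemokines for monocytes and T cells, 52 of 76 and 45 of 57. In each of the 10 lower genes with the firmest ratios, 1 nucleus thus held most of the UMIs.

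The other genes with the highest ratios were partly spread. H2-Aa and H2-Ab1, the chains of the class II antigen-presenting molecule I-A, were at 8.36 and 20.9 CPM in Sun1_WT and 237.0 and 221.7 CPM in Sun1_KO members. They were read in 2 and 5 nuclei against 12 and 14, with 54 of 93 and 37 of 87 Sun1_KO UMIs in 1 nucleus. Without the nucleus that held most, their log2 ratios were 4.01 and 2.78. Both genes had enough UMIs to be measured in 10 of the 16 alternatives only, and were past 2-fold in those 10. Macrophage markers were also higher in Sun1_KO members, with 3 of 5 measured past 2-fold, a median log2 ratio of 1.29 and Apoe highest at 1.55 (0.95 without the nucleus that held most of it), and their part in the class II result was not tested. Dsc2, Itgbl1 and Tenm3 had 43 of 49, 51 of 58 and 70 of 79 Sun1_KO UMIs in 1 nucleus.

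Of the 19 measured cytotoxic genes, Nkg7, Gzmb and Ccl5 were lower in the Sun1_KO library. Prf1, read in 34 and 41 members, was at 0.23, with 186 of its 358 Sun1_KO UMIs in the deepest Sun1_KO member. The Prf1 ratio kept its sign in 10 of 16 alternatives. It was lowest at -0.88, without members with 5 or more macrophage marker UMIs. Nkg7, a granule protein of killer lymphocytes, was at 668.4 CPM (160 UMIs in 41 of 66 nuclei) in Sun1_WT and 259.9 CPM (102 UMIs in 40 of 99) in Sun1_KO, a log2 ratio of -1.36 (-1.74 to -0.996). Gzmb, the main apoptosis-inducing granzyme, was at 676.8 CPM (162 UMIs in 34 nuclei) and 298.1 CPM (117 in 30), a log2 ratio of -1.18 (-1.54 to -0.83). Ccl5, a chemokine of effector and memory CD8 T cells, was at 292.4 CPM (70 UMIs in 16 nuclei) and 86.6 CPM (34 in 15), a log2 ratio of -1.74. These 3 genes stayed past 2-fold and lower in all 16 alternatives in which each was measured.

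Cxcr6, a chemokine receptor that holds T cells in tumours and tissues, and Id2, a transcriptional regulator of effector CD8 T cells, behaved alike. Cxcr6 was at 572.3 CPM (137 UMIs in 41 nuclei) in Sun1_WT and 237.0 CPM (93 in 46) in Sun1_KO, a log2 ratio of -1.27 (-1.67 to -0.88). Id2 was at 898.2 CPM (215 UMIs in 52 nuclei) and 400.1 CPM (157 in 56), a log2 ratio of -1.17 (-1.47 to -0.86). Both passed 2-fold in all 16 alternatives. Ly6c2, a surface protein of effector and memory CD8 T cells, had a log2 ratio of -1.27, from 71 UMIs in 29 and 48 UMIs in 20 nuclei. Cd244a (2B4) and Cd27, a receptor of the tumour necrosis factor family, had ratios of -1.45 and -1.12. Ly6c2 was named after its values were seen. The lists that hold Cxcr6 and Id2 did not move as a whole, with 2 of 15 adhesion and migration genes lower and a median of 0.006, and 1 of 22 lymphoid transcription factors lower.

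The same genes were not all lower in NK-like nuclei. There the log2 ratios of Sun1_KO over Sun1_WT were -1.16 for Nkg7 and -1.63 for Gzmb, but 0.15 for Id2, 1.23 for Ccl5 and 2.58 for Cxcr6. The Cxcr6 value in NK-like nuclei rests on only 4 Sun1_WT and 13 Sun1_KO UMIs. In macrophage-like and tumour-like nuclei, which hold little of this RNA, Gzmb was at -0.31 and 0.06. The differences between classes were not tested. Of the 69 lower genes of the members, 63 were measured in NK-like nuclei and 20 of those were also at least 2-fold lower there, where 3.69% of all genes measured were.

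The make-up of the members differed between the libraries, so the ratios were also taken within nuclei that carried Cd8a or Cd8b1, 49 in each library, a setting added after the data were seen. Gzmb was at 808.8 CPM in the Sun1_WT and 343.6 CPM in the Sun1_KO Cd8 nuclei, a log2 ratio of -1.23 (-1.65 to -0.83). Nkg7 had a ratio of -1.10, Ccl5 of -1.79, Cxcr6 of -1.23 and Id2 of -1.32. Havcr2 was at -0.71 over all members and -1.28 (-1.84 to -0.75) in Cd8 nuclei, where 85 and 45 UMIs were read. Prf1 was at 0.23 over all members, with the granzyme nucleus included, and at -0.65 (-0.97 to -0.34) in Cd8 nuclei. These 5 effector genes thus stayed past 2-fold within Cd8 nuclei. The median depth of members with Cd8 RNA alone was 2996 UMIs in Sun1_WT and 4313 in Sun1_KO, and CPM is scaled by it.

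Of the 8 measured naive and memory genes, none passed 2-fold over all members, 5 had ratios above 0, and Bcl2 and Foxo1 were lowest at -0.74 and -0.42. Bach2, a repressor that restrains effector programmes, was at 346.7 CPM (83 UMIs in 30 nuclei) in Sun1_WT and 682.9 CPM (268 in 55) in Sun1_KO, which gave a log2 ratio of 0.97 (0.62 to 1.35). In Cd8 nuclei it was at 331.4 and 917.7 CPM, a ratio of 1.46 (1.05 to 1.91). That was the highest Bach2 ratio of 16 alternatives, and the lowest was 0.54, after thinning to 1000 UMIs. All 16 kept the direction and 5 passed 2-fold. Il7r was at 179.6 and 308.3 CPM, a log2 ratio of 0.77 (0.27 to 1.32) over all members, and at 0.06 (-0.60 to 0.75) in Cd8 nuclei. Lef1, a factor of naive and memory T cells, was at 0.90 over all members. In Cd8 nuclei it was at -0.37 (-1.79 to 1.05), from 10 UMIs in each library, below the count needed to be measured. Bach2 was higher among Cd8 nuclei, whereas the Il7r difference was not seen there. In members with neither co-receptor Il7r had 2 UMIs in 13 Sun1_WT nuclei and 63 in 43 Sun1_KO nuclei. Of the 63, 26 were in the 5 nuclei with gamma-delta genes. Lef1 had 4 and 46 UMIs in the members with neither co-receptor, a ratio of 1.34 (0.04 to 3.43). Where the Lef1 difference lies cannot be told, since its interval in Cd8 nuclei includes the value over all members. Tcf7, the factor of stem-like T cells, was rare, with 4 and 10 UMIs.

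**Figure D4:**
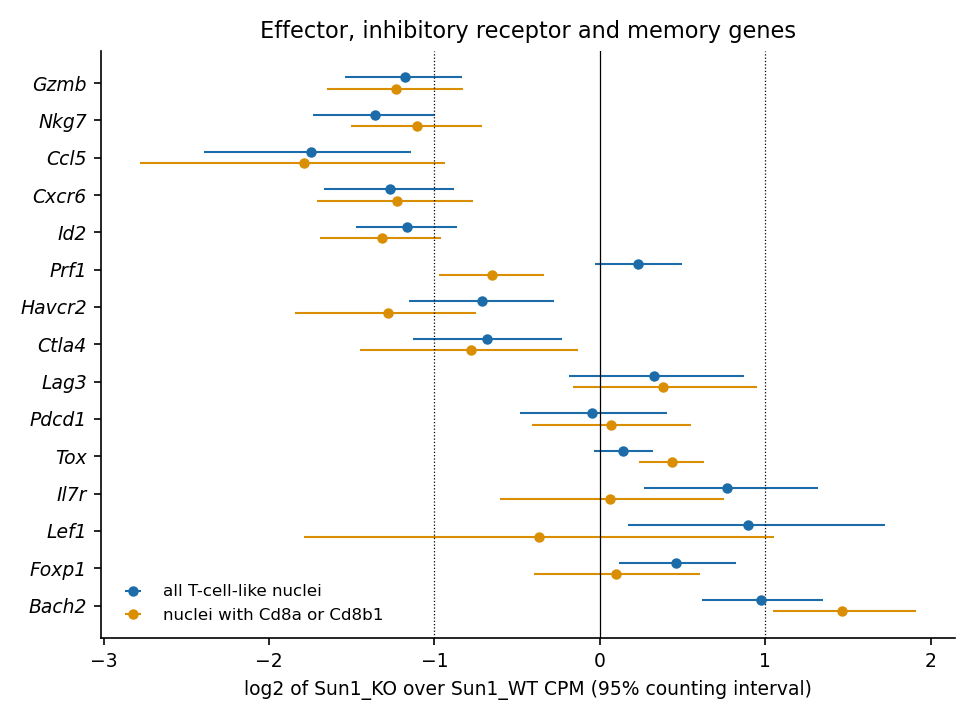
Log2 ratio of Sun1_KO over Sun1_WT CPM (horizontal axis, with exact 95% counting intervals as lines) for 15 effector, inhibitory receptor and memory genes, over all T-cell-like nuclei (blue) and over the 49 and 49 nuclei with Cd8a or Cd8b1 (orange), with dotted lines at 2-fold. Gzmb, Nkg7, Ccl5, Cxcr6 and Id2 lie below -1 in both sets, and Bach2 is the highest of the 15 in both.

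Inhibitory receptors did not share a direction between the genotypes. Pdcd1 stood at 296.6 CPM (38 of 66 nuclei) in Sun1_WT and 287.9 CPM (52 of 99) in Sun1_KO, and its log2 ratio was -0.05 (-0.48 to 0.41). Tox was at 1675 and 1850 CPM, a ratio of 0.14 (-0.03 to 0.32), and Lag3 at 192.2 and 242.1 CPM, a ratio of 0.33 (-0.19 to 0.87). Ctla4 was at 350.9 and 219.1 CPM, a ratio of -0.68 (-1.13 to -0.23). A 2-fold difference in Pdcd1, Tox or Lag3 lay outside these counting intervals, but Lag3 was at 1.06 after thinning to 1000 UMIs, where it was read in 10.9% and 21.5% of members. Tigit was hardly read, with 2 and 10 UMIs.

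Within the members, Tox was read in most nuclei with and without Pdcd1, with a larger gap in Sun1_KO than in Sun1_WT. Of nuclei with Pdcd1, 33 of 38 in Sun1_WT and 49 of 52 in Sun1_KO also had Tox, against 22 of 28 and 30 of 47 of those without Pdcd1. Gzmb was read in 24 of 38 and 21 of 52 nuclei with Pdcd1 and in 10 of 28 and 9 of 47 without it. Proliferation genes (Mki67 or Top2a) were read in 20 of 38 and 40 of 52 nuclei with Pdcd1 and in 10 of 28 and 14 of 47 without it. Nuclei with Pdcd1 were deeper, with medians of 3053 and 4292 UMIs against 2327 and 2181, and the part of depth in these counts was not tested.

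Over whole lists, the medians ran from -0.49 to 1.29, beside 0.03 over all 3043 genes. The lowest was that of the regulatory T-cell list, where 1 of 7 measured genes was above 0 and Capg was lower, and the highest that of the macrophage markers. The 5 measured receptor chain genes had a median of -0.26 with none past 2-fold, and the endothelial list rested on Pecam1 at 0.77. The 8 measured of 18 naive and memory genes had a median log2 ratio of 0.32 with none past 2-fold. The 15 of 18 exhaustion and checkpoint genes had a median of -0.06, with 2 lower (Cd244a and Cxcr6), and the 26 receptor signalling genes a median of -0.10, with Cd27 lower. The 19 of 23 cytotoxic genes had a median of -0.23, with 4 higher, all of which lost 2-fold or kept few UMIs without 1 nucleus, and 3 lower. The 22 of 28 lymphoid transcription factors had a median of -0.09 with Id2 lower, and the 19 of 32 interferon response genes a median of -0.18 with Parp14 lower. The 22 of 26 proliferation genes had a median of 0.12, with 1 higher: Mcm5, a subunit of the replicative helicase, at 50.1 and 130.0 CPM from 12 and 51 UMIs. Nuclear envelope genes, 11 of 20 measured, had a median of 0.09 with none past 2-fold. The effector genes named above were a minority of their lists.

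Some genes past 2-fold were past it in every class of nuclei. Taco1, a translational activator of a mitochondrial respiratory subunit, had 7 UMIs in 5 Sun1_WT members and 83 in 46 Sun1_KO members, a log2 ratio of 2.76, and ratios of 3.19, 3.37 and 1.40 in NK-like, macrophage-like and tumour-like nuclei. Lgals1 (galectin 1) was at -1.04, and at -1.33, -1.08 and -1.52 in the other classes, and Rpl10, a ribosomal protein gene, at -1.02 with -1.41, -1.06 and -1.55. Emb (embigin, an adhesion protein) had 12 UMIs in 4 Sun1_WT and 80 in 26 Sun1_KO members, a ratio of 1.97. Its ratio was 1.41 in NK-like nuclei and also past 2-fold in tumour-like nuclei, from 121 Sun1_WT and 177 Sun1_KO UMIs. In macrophage-like nuclei, with 129 and 126 UMIs, Emb was within 2-fold. Of the 70 spread higher genes, 7 of 69 measured were also 2-fold higher in NK-like nuclei and 5 of 70 in tumour-like nuclei, beside 4.69% and 6.12% of all genes. Of the 36 spread lower genes, 9 of 34 measured were also lower in NK-like nuclei and 9 of 36 in tumour-like nuclei, beside 3.69% and 1.45% of all genes. Taco1, Lgals1 and Rpl10 thus differed in all 4 classes, and these 3 and Emb were named after their values were seen.

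Chromatin accessibility was read over 39 T-cell loci, each a gene with 2 kb on either side, in the same nuclei. Peaks were called separately in each library, so classes are compared within a library only. Accessibility over these loci, in CPM of the peak counts of a nucleus, had a median of 3723 in Sun1_WT members, with 10% of nuclei below 2423, and of 4315 in Sun1_KO members, with 10% below 2750. NK-like nuclei had medians of 2959 and 3786, macrophage-like nuclei of 977.2 and 1100, and tumour-like nuclei of 602.5 and 637.9. Over macrophage loci the members summed to 33.5 and 56.4 CPM against 423.1 and 493.0 CPM in macrophage-like nuclei. By chromatin too, the nuclei chosen by RNA thus stood with lymphocytes and apart from macrophages and tumour cells.

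**Figure D5:**
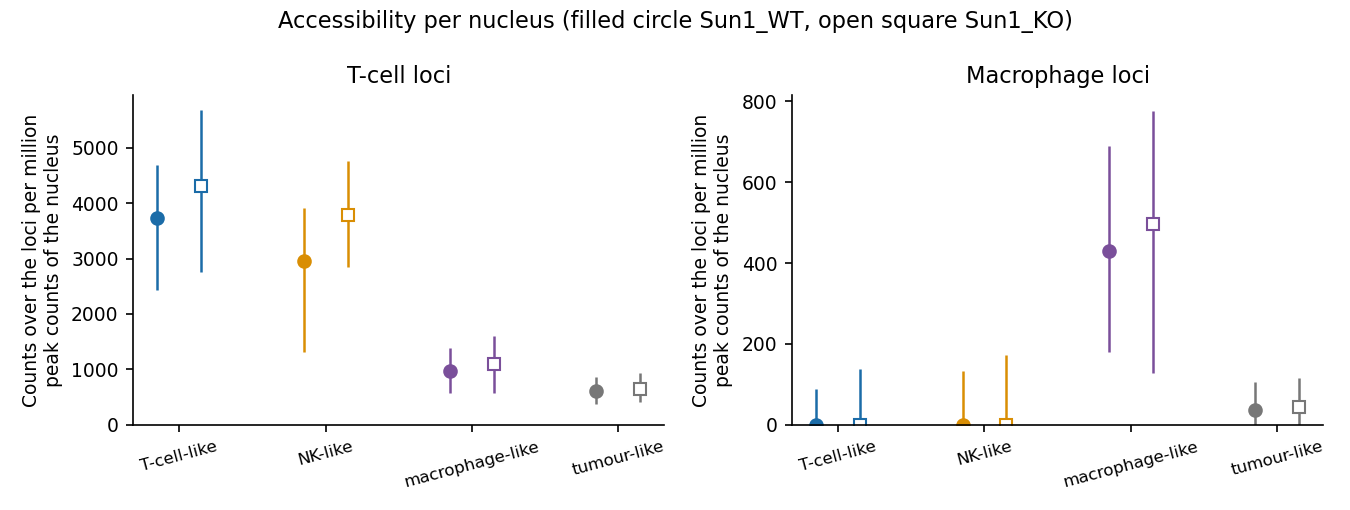
Accessibility per nucleus, in CPM of the peak counts of the nucleus (vertical axes) over T-cell loci (left) or macrophage loci (right), for 4 classes in the Sun1_WT (filled circles) and Sun1_KO (open squares) libraries. Points are medians and lines run from the 10th to the 90th percentile of nuclei, and T-cell-like nuclei have the highest medians over T-cell loci in both libraries, 3723 and 4315.

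Among T-cell loci with at least 50 counts over both classes in each library, 33 of 37 were at least 2-fold higher in the members than in tumour-like nuclei in both libraries, where 12.5% of all gene loci were. Against macrophage-like nuclei 26 of 36 were higher, where 6.07% of all loci were. Against NK-like nuclei 5 of 37 were higher (Bcl11b, Cd5, Cd6, Lag3 and Pdcd1), where 0.96% of all loci were, and 0 were lower, where 2.36% were. Median log2 ratios against NK-like nuclei were 0.47 in Sun1_WT and 0.13 in Sun1_KO for the T-cell loci, and 0.10 and 0.02 for all loci. The loci chosen as T-cell loci were thus largely open in NK-like nuclei as well. The Bcl11b gene lies at chromosome 12, 107910403 to 108004145 in mm10, to which the 2 kb flanks were added. Its locus carried a count in 77.3% and 75.8% of members, 34.1% and 36.0% of NK-like and 2.51% and 2.28% of macrophage-like nuclei. Pdcd1 (chromosome 1, 94038305 to 94052553) carried one in 42.4% and 64.7% of members and in 7.69% and 46.7% of NK-like nuclei.

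Promoters of a gate gene, a co-receptor, effector genes and the excluded NK receptor gene are shown because RNA and accessibility can be set side by side there. Each is the 250 bases before the RefSeq start in GRCm38.p6 (mm10), written 5' to 3' on the strand of the gene. Capitals mark the letters TGTGGT or their reverse complement ACCACA, the core bound by RUNX factors, which are regulators of CD8 T cells and NK cells; 14.0% of 32851 promoters of this length hold them. A match is a description of the letters only. Cd3e lies at chr9:45009612-45009861 on the minus strand, Cd8a at chr6:71373177-71373426 on the plus strand, Gzmb at chr14:56262335-56262584 on the minus strand, Nkg7 at chr7:43436888-43437137 on the plus strand and Ncr1 at chr7:4337465-4337714 on the plus strand.
Cd3e: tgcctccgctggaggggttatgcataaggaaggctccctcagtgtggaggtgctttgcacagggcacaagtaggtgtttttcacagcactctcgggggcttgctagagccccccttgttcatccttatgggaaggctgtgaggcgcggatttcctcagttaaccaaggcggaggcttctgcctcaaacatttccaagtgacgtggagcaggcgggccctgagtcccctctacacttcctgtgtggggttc
Cd8a: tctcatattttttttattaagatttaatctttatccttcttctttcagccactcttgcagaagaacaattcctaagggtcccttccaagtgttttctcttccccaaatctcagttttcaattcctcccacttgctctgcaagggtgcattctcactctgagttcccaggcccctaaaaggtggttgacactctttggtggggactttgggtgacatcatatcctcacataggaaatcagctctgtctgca
Gzmb: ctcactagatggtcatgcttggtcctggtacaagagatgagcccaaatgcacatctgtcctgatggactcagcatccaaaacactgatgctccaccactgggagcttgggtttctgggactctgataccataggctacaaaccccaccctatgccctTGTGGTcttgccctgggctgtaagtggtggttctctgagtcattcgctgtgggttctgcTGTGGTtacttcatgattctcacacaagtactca
Nkg7: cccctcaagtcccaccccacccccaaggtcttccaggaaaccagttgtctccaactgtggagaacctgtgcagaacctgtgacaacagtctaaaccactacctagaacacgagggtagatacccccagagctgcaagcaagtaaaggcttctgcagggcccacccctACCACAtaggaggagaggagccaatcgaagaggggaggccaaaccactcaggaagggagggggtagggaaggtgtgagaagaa
Ncr1: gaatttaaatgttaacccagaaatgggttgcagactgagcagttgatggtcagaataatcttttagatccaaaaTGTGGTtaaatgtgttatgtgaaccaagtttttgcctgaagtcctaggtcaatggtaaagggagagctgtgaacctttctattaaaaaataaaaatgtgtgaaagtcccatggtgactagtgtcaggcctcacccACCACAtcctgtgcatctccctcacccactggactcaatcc

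The peak over the Cd3e promoter carried a count in 37.9% of Sun1_WT and 52.5% of Sun1_KO members, against 2.20% and 5.33% of NK-like nuclei. That over the Cd8a promoter carried one in 39.4% and 30.3% of members and in 1.10% and 0 of NK-like nuclei. Neither promoter holds the RUNX letters in this window. Few NK-like nuclei thus carried a count at the Cd3e or Cd8a peak. Gzmb has the letters with first bases 93 and 34 before the start, and its peak carried a count in 62.1% and 47.5% of members and 53.8% and 50.7% of NK-like nuclei. Nkg7 has them 83 before the start, and its peak carried one in 65.2% and 55.6% of members and 63.7% and 73.3% of NK-like nuclei. In macrophage-like nuclei the shares were 0.837% and 0.913% at Gzmb and 1.26% and 2.28% at Nkg7. The effector promoters were therefore open in members of both libraries. As peaks were called separately, these shares are not compared between the libraries or set against the RNA ratios. Ncr1 has the letters 176 and 41 before the start, and its peak carried a count in 0 of 66 and 4 of 99 members and in 38.5% and 53.3% of NK-like nuclei, so that the nuclei without Ncr1 RNA were mostly without counts at its promoter too.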

How the data were processed

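The deposited files hold raw counts per nucleus, of UMIs over genes and of accessibility counts over peaks that were called in each library on its own. Per the submitters' processing notes the build was mm10 and the tools Cell Ranger, Cell Ranger ARC, FastQC, Signac and Seurat, without versions. Of the accessibility values above 0, 75.5% and 75.0% were even, so most rise in steps of 2.

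Members and gene lists were chosen with earlier results of these data known. UMIs of the members were summed per library and scaled to CPM by a total that left out mitochondrial genes, and ratios were taken after adding 0.5 UMI to each sum, for genes with at least 50 UMIs. Named genes were gate genes, the 10 higher and 10 lower by the interval bound nearest 1, list extremes and members of the T-cell lists. Intervals were exact Poisson, binomial or conditional binomial at 95%, and a class at 0 was set to a floor of 3 UMIs. UMIs of 1 nucleus are not independent, and intervals cover counting error only. Scrublet marked under 0.5% of nuclei and was not used for removal. Accessibility loci and promoters came from RefSeq tables for GRCm38.p6, which matched 63 of 63 listed genes. Some genes of the lists count in their totals and are not reported here by name. The tools were Python 3.11.15, numpy 2.4.6, scipy 1.17.1 and pandas 2.3.3, and edgeR 4.0.16 gave the TMM factors of 1 alternative.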

Additional observations from a re-analysis of the deposited data

How the results depend on the processing

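No paired analysis was possible because each genotype has 1 library of each kind. The counts of genes 2-fold higher and lower in Sun1_KO members were 100 and 69 of 3043 tested. They were 372 and 264 of 6018 with at least 20 UMIs and 25 and 22 of 1448 with at least 100. They were 54 and 64 with 5 UMIs added to each sum, and 80 and 84 with mitochondrial genes kept, which turned the share of higher genes among those past 2-fold from 59.2% to 45.8% and 48.8%. With a gate sum of at least 5 they were 63 and 48 of 2262, and in Cd8 nuclei 46 and 45 of 1990. Thinned to 1000 UMIs, where genes needed at least 20 UMIs, they were 109 and 75 of 1802. Of these, 21 and 17 were among the main ones. Genes past 2-fold against NK-like nuclei numbered 72 and 60 with at least 50 UMIs in each library, and T-cell loci above NK-like nuclei 3 with binarised counts. Without the deepest nucleus of each library the log2 ratio of Col1a2 was 0.89 and of Col3a1 1.81. Without members with 5 or more macrophage UMIs they were 0.77 and 1.92. Col1a2 was 0.17 with a gate sum of at least 3 and 0.11 with at least 5. Without the nucleus that held most of each gene, the ratio was 1.23 for Col1a1, 0.38 for Col1a2, 0.41 for Col3a1, -3.88 for Gzme, -0.95 for Gzmf, -0.71 for Gzmg, 0.024 for Slfn4 and 0.083 for Sparc, since the leading nucleus was left out. The causes of the other changes were not tested. Under the other alternatives (TMM and median-ratio factors, Hmga2 at 0, at least 1000 UMIs, doublet scores) both counts stayed within 1.5 times. Of 296 list medians under the alternatives, 292 moved by less than 1.5 times, and the other 4 were of the endothelial list, which rests on Pecam1 alone. Settings with a gate sum of at least 5, Cd8 nuclei only and without the leading nucleus were chosen after seeing the data. Depth limits what can be seen: Foxp3, Tigit and Tcf7 gave 10 UMIs or fewer in each library.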
